A study of Homo sapiens with 105 samples.

Results

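Genes that carry or restrain NF-kappaB signalling were followed in Caco-2 cells exposed to bacterial vesicles, to the RNA taken from those vesicles, or to lipopolysaccharide (LPS). They were chosen by name as 10 of the 63241 genes of the raw count table: the subunit genes NFKB1, NFKB2 and RELB, the inhibitor NFKBIA and its relative BCL3, the brakes TNFAIP3, TNIP1 and ZC3H12A, the gene of apoptosis inhibitor cIAP2 (BIRC3) and the kinase gene IKBKE. The list was drawn up with earlier results of these data known, so shares of it set beside all genes are descriptive. All 10 passed the filter on low counts that left 19233 genes to be tested, and none was at 0 in any library used.

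NF-kappaB is a family of dimeric transcription factors held in the cytoplasm by IkB proteins. Bacterial products, cytokines and other stress signals activate the IKK kinases, which mark IkB for destruction, and the freed dimers enter the nucleus and switch on genes of defence and survival. Several of those genes encode the pathway's own brakes: IkBα (NFKBIA) recaptures the dimers, A20 (TNFAIP3) with its partner ABIN1 (TNIP1) edits the ubiquitin chains on which the signal is built, and Regnase-1 (ZC3H12A) degrades inflammatory mRNAs. NFKB2 and RELB form the dimer of the slower, non-canonical arm. In the gut epithelium, which lies beside dense microbial communities, these brakes are known for keeping inflammatory signalling short.

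Caco-2 is a human colon adenocarcinoma cell line, and every group was made from it, so that all results concern a tumour-derived epithelium grown alone, with no immune cells beside it. Cells received vesicles in the medium, namely 1.5e11 membrane vesicles (MVs) of L. casei DSM 20011, 7.5e9 MVs of E. faecalis DSM 20478 or 6.0e9 outer membrane vesicles (OMVs) of P. mirabilis DSM 4479, with PBS as control. Other cells were transfected with RNA from the same vesicles, at 100 ng for L. casei, 5 ng for E. faecalis and 2 ng for P. mirabilis, and the controls were equal amounts of a non-targeting siRNA. P. mirabilis LPS was given in the medium at 0.2 ng per µl, with PBS as control, or transfected at 1 ng per µl, with the 2 ng siRNA as control. The labels give these LPS concentrations per µl, whereas the study's methods give them per ml, so the dose is uncertain. Cells were lysed after 10 or 24 h, and after 48 h as well for PBS, the 100 ng siRNA, L. casei MVs and L. casei RNA. Because the 3 vesicle preparations were given in different numbers, differences between them are also differences of dose.

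The libraries fall into 28 groups, 7 of 3 and 21 of 4 libraries, and 39 of them, from lanes 2, 3 and 4 of 1 flow cell, were set aside for the values below. Over the 1500 genes that varied most among the libraries kept, each library was compared with means of other kept libraries. Each mean was taken over 1 time and 1 replicate number. The best correlated mean had the labelled time for each of the 66 kept, against 12 of the 39 set aside. Genes and means came from the kept libraries, and 38 of the 39 set aside are replicates 4 or 5. The comparison therefore favours the libraries kept. The 66 kept leave 20 groups with 2 libraries, 6 with 3 and 2 with 4, at 632659 to 8558755 counts per library (median 5563438). Levels are given as CPM, the counts a gene would have at a TMM-scaled library size of 1000000. The epithelial markers EPCAM (414 to 605 CPM) and VIL1 (433 to 560 CPM) were present in every library. The leukocyte marker PTPRC had counts in 2 libraries and the summed level of 6 leukocyte markers was 8.37 to 29.4 CPM. The labels number the replicates without placing them in separate cultures, so a p-value here reflects library-to-library spread, which may be technical. Unless stated otherwise, a gene is said to have risen or fallen where edgeR's quasi-likelihood test gave an adjusted p under 0.05 over all 19233 genes.

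The stretches directly upstream of 5 of the genes are shown because they carry, or lack, the DNA letters that NF-kappaB dimers are known to recognise. Sequences are RefSeq's, from build GRCh38.p14, up to 250 bases long and ending before the annotated gene, 5′ to 3′ on the gene's strand, with matches to the kappaB consensus on either strand in capitals.
TNFAIP3: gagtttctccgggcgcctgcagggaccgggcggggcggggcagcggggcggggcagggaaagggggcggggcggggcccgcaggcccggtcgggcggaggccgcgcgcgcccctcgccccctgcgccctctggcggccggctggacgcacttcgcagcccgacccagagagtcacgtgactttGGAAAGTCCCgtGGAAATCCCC
NFKBIA: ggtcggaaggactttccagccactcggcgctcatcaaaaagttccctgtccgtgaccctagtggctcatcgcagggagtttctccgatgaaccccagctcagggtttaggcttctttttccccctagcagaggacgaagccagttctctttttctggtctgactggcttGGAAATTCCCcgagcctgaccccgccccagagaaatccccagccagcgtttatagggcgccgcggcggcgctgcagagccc
BIRC3: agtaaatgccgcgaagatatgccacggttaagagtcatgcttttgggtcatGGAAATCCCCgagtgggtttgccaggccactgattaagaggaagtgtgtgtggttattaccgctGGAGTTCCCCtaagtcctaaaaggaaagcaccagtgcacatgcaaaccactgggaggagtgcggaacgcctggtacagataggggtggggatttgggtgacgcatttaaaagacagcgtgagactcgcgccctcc
NFKB1: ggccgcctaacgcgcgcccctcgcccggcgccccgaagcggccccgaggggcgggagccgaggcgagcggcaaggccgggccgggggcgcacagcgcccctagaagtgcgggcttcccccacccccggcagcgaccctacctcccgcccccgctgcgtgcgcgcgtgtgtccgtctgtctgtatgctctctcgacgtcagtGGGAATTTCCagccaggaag
IKBKE: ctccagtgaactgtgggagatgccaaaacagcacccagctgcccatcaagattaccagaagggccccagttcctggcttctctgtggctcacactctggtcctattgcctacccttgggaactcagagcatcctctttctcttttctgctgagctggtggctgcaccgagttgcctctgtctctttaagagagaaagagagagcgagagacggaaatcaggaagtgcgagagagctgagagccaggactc
The stretch of TNFAIP3 lies at chr6:137867009-137867213 on the plus strand and holds 2 matches, 67 and 55 bases before the RefSeq start. That of NFKBIA lies at chr14:35404750-35404999 on the minus strand with a match 81 bases before the start. BIRC3, at chr11:102317234-102317483 on the plus strand, has 2 matches 199 and 135 bases before it, and NFKB1, at chr4:102501109-102501329 on the plus strand, has 1 match 49 bases before it. The stretch of IKBKE, at chr1:206470226-206470475 on the plus strand, has none. Among RefSeq promoter windows of 300 bases, 3956 of 35116 (11.3%) held a match, as did 8 of the 13 windows of the listed genes, in 7 of the 9 genes with a window. Counted by gene, 13.3% of all genes with a window and 16.9% of those tested had a match. RELB was the gene not matched to a window. A match is a string of letters and not a measured binding site.

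Per kilobase of annotated exon, TNIP1 had the highest level of the 10 genes, with a median of 15.3 CPM per kb over the 66 libraries. BCL3 (9.36), NFKBIA (8.46), TNFAIP3 (5.87) and NFKB2 (5.71) followed on that scale. RELB (4.68), IKBKE (4.28), ZC3H12A (3.23) and NFKB1 (3.19) were lower, and BIRC3 (0.739) was the lowest. The length used was all annotated exon bases of a gene, such as 15679 for NFKB1 and 3091 for ZC3H12A. This order therefore depends on the annotation and is not an order of transcript abundance. In CPM without division by length, NFKB1 had the highest median after TNIP1, and BIRC3 again had the lowest. The range of group means differed between the genes. NFKB1, which encodes p105 and its product p50, moved least, from 35.6 CPM in L. casei RNA at 48 h to 57.4 CPM in L. casei RNA at 10 h, a ratio of 1.61. BIRC3, whose protein cIAP2 is a ubiquitin ligase of the receptor complexes, had the widest range of means, from 2.07 CPM in PBS at 48 h to 9.92 CPM in P. mirabilis OMVs at 10 h, a ratio of 4.79. That lowest mean rests on libraries at 0.649 CPM (3 counts) and 3.50 CPM, and the next lowest, L. casei RNA at 48 h, was 2.69 CPM. The highest group mean was an OMV group for NFKB2, RELB, NFKBIA, TNFAIP3, ZC3H12A, IKBKE and BIRC3, L. casei MVs at 48 h for BCL3 and TNIP1, and L. casei RNA at 10 h for NFKB1.

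The question whether whole OMVs move these genes was asked against PBS at each time. TNFAIP3 and IKBKE rose at both times, and RELB, NFKBIA and BIRC3 rose at 24 h as well, so that the genes passing the test included inhibitors, a kinase and a subunit gene. Fitted changes of the 5 genes at 24 h lay between 1.88-fold for NFKBIA and 2.80-fold for BIRC3. No listed gene fell. At 10 h, 2 of 10 passed where 1.09% of all genes did, and at 24 h 5 of 10 passed where 0.109% of all genes did. Because the list was chosen with earlier results known, these shares do not test whether it stands out.

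TNFAIP3 had the smallest adjusted p of the 10 genes at both times. At 10 h its level was 41.5 and 38.9 CPM in the PBS libraries and 72.2, 71.3 and 79.1 CPM in the OMV libraries. At 24 h it was 36.7 and 29.3 CPM in PBS and 87.5 and 69.997 CPM in OMVs. Every OMV library stood above every PBS library at both times. In RNA from whole wells, more responding cells and more RNA per cell cannot be told apart. The fitted difference was a log2 fold change of 0.86 ± 0.11 (SE; 1.82-fold, adjusted p = 1.95e-08) at 10 h and 1.24 ± 0.12 (2.37-fold, adjusted p = 3.73e-13) at 24 h. TNFAIP3 shares exon bases with the antisense gene WAKMAR2, and the sources name no strand setting for the counting, so reads of the pair cannot be told apart.

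IKBKE encodes IKKε, a kinase related to the IKK pair that also serves interferon induction. Its level at 10 h was 12.98 and 15.2 CPM in PBS and 26.0, 36.1 and 29.0 CPM in OMVs. At 24 h it was 12.4 and 13.3 CPM in PBS and 32.7 and 27.8 CPM in OMVs. Again the groups did not overlap at either time. IKBKE was 2.11-fold higher at 10 h (log2 fold change 1.08 ± 0.16, adjusted p = 3.28e-06) and 2.35-fold higher at 24 h (1.23 ± 0.18, adjusted p = 3.25e-06). Its exons overlap those of IKBKE-AS1, with the same limit on strand.

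**Figure D1:**
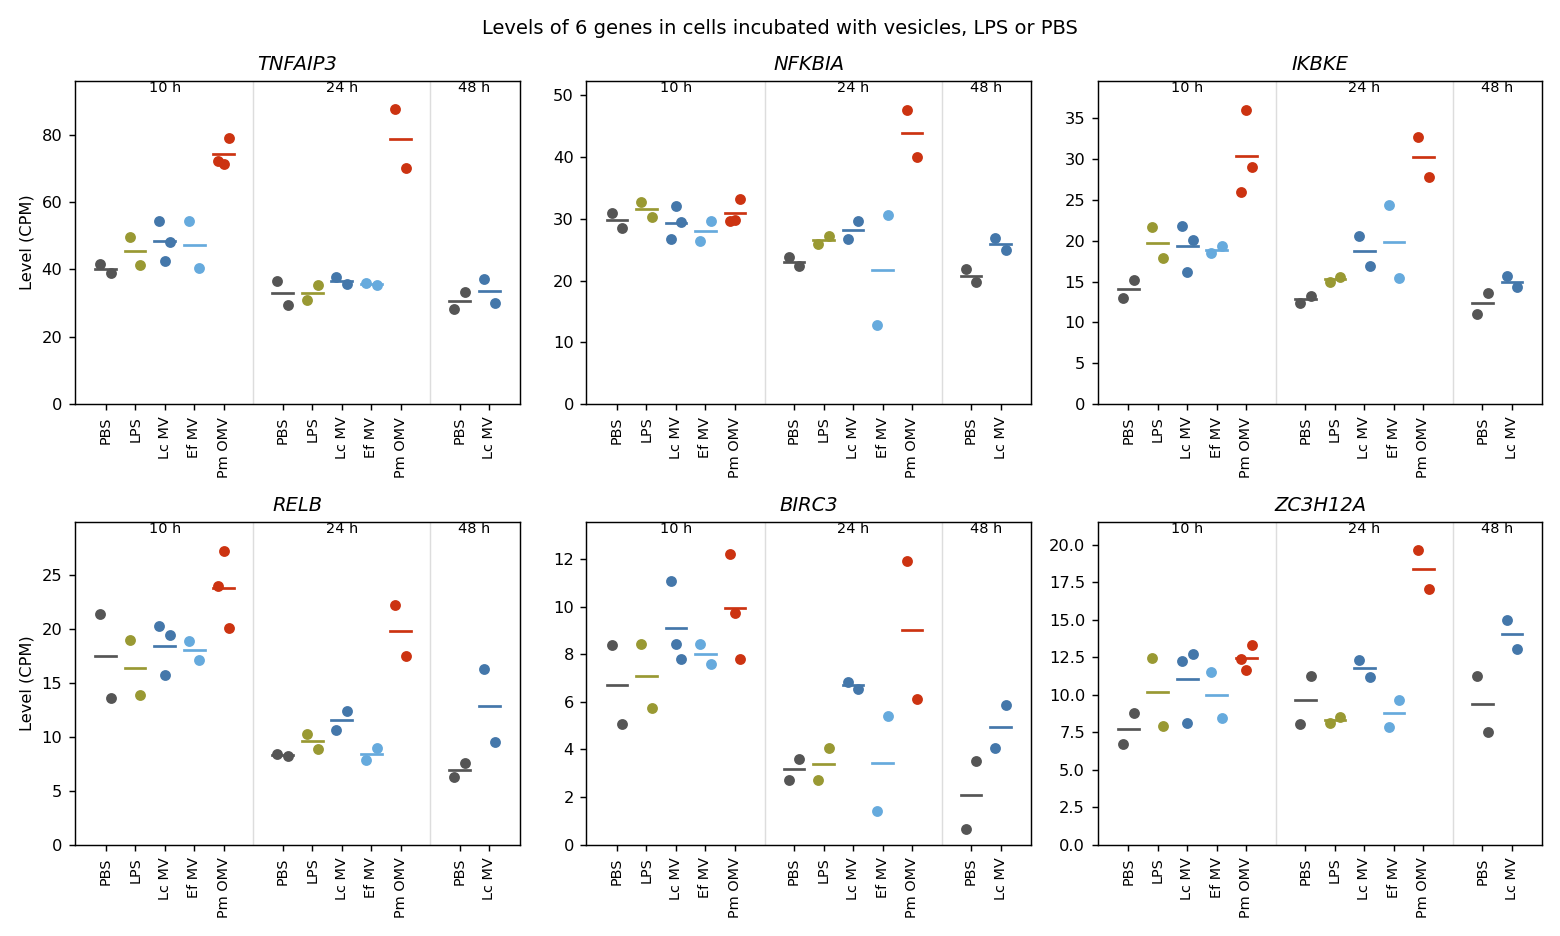
CPM (linear axis from 0) of 6 genes in each library of cells given PBS, LPS, or vesicles of L. casei, E. faecalis or P. mirabilis in the medium, by time in hours; each point is a library and each line a group mean. The OMV points of TNFAIP3 (69.997 to 87.5 CPM) and IKBKE (26.0 to 36.1 CPM) lie above all other points at both times, whereas those of NFKBIA stand apart at 24 h and not at 10 h.

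NFKBIA showed no such step at 10 h. It stood at 31.0 and 28.5 CPM in PBS and at 29.6, 29.8 and 33.2 CPM in OMVs, and these groups overlapped (log2 fold change 0.05 ± 0.15). At 24 h it was 23.8 and 22.3 CPM in PBS and 47.6 and 40.0 CPM in OMVs, a rise of 1.88-fold (0.91 ± 0.16, adjusted p = 0.00049). The 24 h call of NFKBIA was lost without PBS replicate 3 (adjusted p = 0.053) or without OMV replicate 2 (adjusted p = 0.151).

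RELB, the partner of p52 in the non-canonical dimer, was at 8.36 and 8.24 CPM in PBS and at 22.2 and 17.5 CPM in OMVs at 24 h. The groups were well apart, at 2.38-fold (1.25 ± 0.24, adjusted p = 0.00377). At 10 h the PBS libraries themselves stood at 21.4 and 13.6 CPM, against 24.0, 27.2 and 20.1 CPM in OMVs, and the groups overlapped (0.57 ± 0.19, adjusted p = 0.15). The 24 h call was lost without PBS replicate 2 (adjusted p = 0.513) or OMV replicate 2 (adjusted p = 0.218).

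BIRC3 was measured with few reads. At 24 h the PBS libraries held 17 and 18 counts (2.73 and 3.62 CPM) and the OMV libraries 43 and 28 counts (11.9 and 6.12 CPM). These did not overlap, and the fitted rise was 2.80-fold (1.48 ± 0.33, adjusted p = 0.0227), a call that held without OMV replicate 3 (1.87) and was lost without PBS replicate 2 (1.18), PBS replicate 3 (1.76) or OMV replicate 2 (1.03). At 10 h BIRC3 was at 8.38 and 5.07 CPM in PBS and 12.2, 9.73 and 7.82 CPM in OMVs, overlapping, with a log2 fold change of 0.75 ± 0.26 (adjusted p = 0.157). Its exons overlap an antisense gene, ENSG00000288528.

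With the replicate block within each time more members passed at 10 h, but in the fit reported the other members did not pass against PBS at either time. ZC3H12A came nearest: at 24 h it was at 8.04 and 11.3 CPM in PBS and 19.7 and 17.1 CPM in OMVs, without overlap, with a log2 fold change of 0.95 ± 0.23 and an adjusted p of 0.0727, which became 0.0422 without PBS replicate 3. TNIP1 was at 91.2 and 87.8 CPM in PBS and 113 and 114 CPM in OMVs at 24 h, and its log2 differences of 0.36 ± 0.12 at 10 h and 0.34 ± 0.13 at 24 h were near each other in size. NFKB2 had log2 differences of 0.56 ± 0.27 and 0.61 ± 0.32, with OMV libraries at 24 h as far apart as 22.2 and 42.2 CPM. The SE of the change in its OMV effect between the times was 0.41 in this fit. With the replicate block within each time it was 0.20. NFKB1 differed by 0.06 ± 0.09 and 0.04 ± 0.10, and its 95% interval at 24 h reached from -0.17 to 0.25. BCL3, an IkB-related protein that acts in the nucleus on p50 and p52 dimers, was the member with the sign of the difference turned between the times, at -0.36 ± 0.14 (adjusted p = 0.238) at 10 h and 0.42 ± 0.16 (adjusted p = 0.784) at 24 h.

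Across the list, 9 of the 10 genes were higher in OMVs than in PBS at 10 h and all 10 at 24 h, where 50.3% and 48.9% of all genes tested were higher. The median log2 difference of the 10 was 0.54 at 10 h and 0.93 at 24 h, against 0.0013 and -0.0047 over all genes. At 24 h 8 of the 10 had both OMV libraries above both PBS libraries, as had 10.4% of all genes. At 10 h 5 of the 10 lay above PBS without overlap and BCL3 lay below, where 10.4% of all genes lay above and 10.3% below. These shares are descriptive too, as the list was not chosen blind to the data. Without the replicate block TNFAIP3, IKBKE and NFKBIA still passed at 24 h, and RELB (1.25, adjusted p = 0.241) and BIRC3 (1.49, adjusted p = 0.714) did not. The summed leukocyte markers were at 15.5 to 17.6 CPM in PBS and 14.6 to 16.9 CPM in OMVs at 10 h, and at 15.1 to 18.01 and 18.6 to 19.2 CPM at 24 h, with PTPRC at 0 in all of these libraries.

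**Figure D2:**
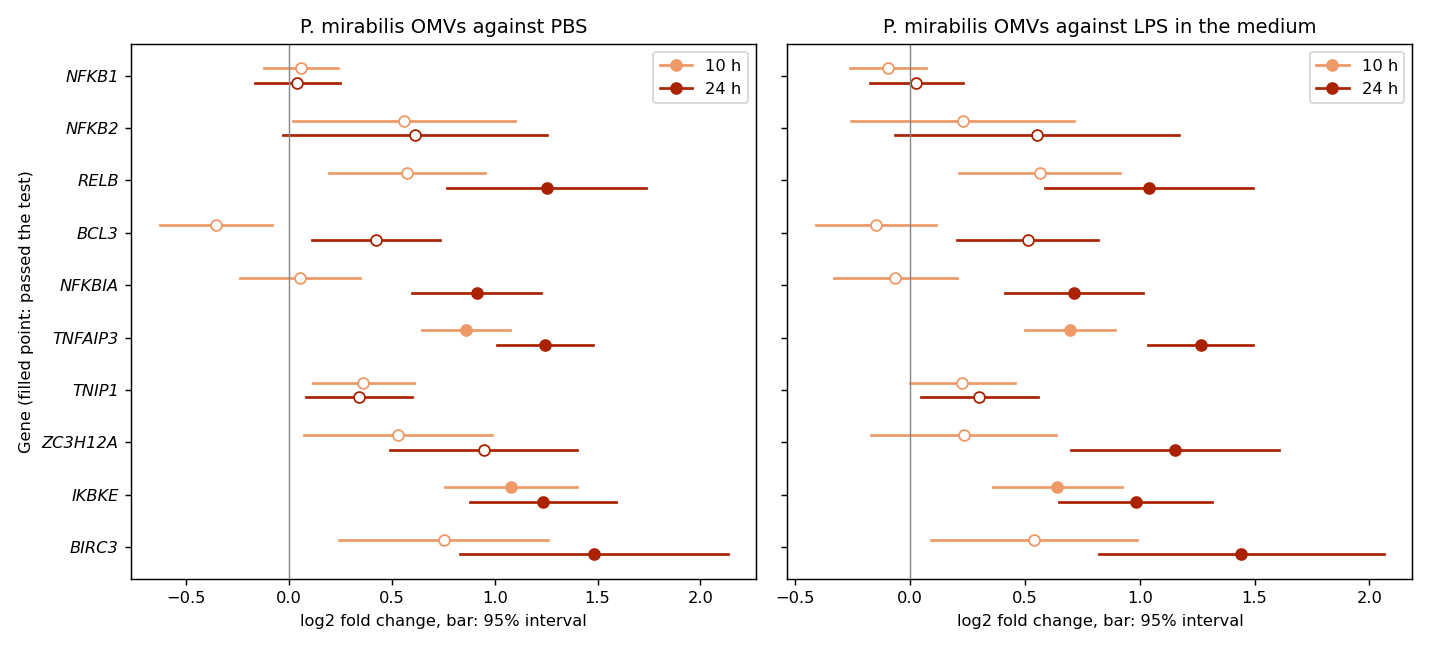
Log2 fold change with its 95% interval (x axis) of the 10 genes (y axis) for P. mirabilis OMVs against PBS and against LPS in the medium at 10 and 24 h; filled points passed the test. At 24 h the values against PBS run from 0.04 for NFKB1 to 1.48 for BIRC3.

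OMVs carry LPS in their outer membrane, and the study gave P. mirabilis LPS alone as a further control. Against LPS in the medium, OMVs raised TNFAIP3 and IKBKE at 10 h and 6 of the 10 genes at 24 h, the 5 that passed against PBS and ZC3H12A. No member was lower with a passing test. The share of all genes that passed was 3.15% at 10 h and 0.151% at 24 h.

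The LPS libraries had TNFAIP3 at 49.7 and 41.1 CPM at 10 h and at 30.9 and 35.3 CPM at 24 h, below every OMV library of the same time. TNFAIP3 was 1.62-fold higher in OMVs than in LPS at 10 h (log2 difference 0.70 ± 0.10, adjusted p = 4.76e-07) and 2.40-fold higher at 24 h (1.26 ± 0.11, adjusted p = 5.54e-14). IKBKE stood at 21.6 and 17.9 CPM in LPS at 10 h and 14.98 and 15.6 CPM at 24 h. Its OMV libraries were higher without overlap, by 0.64 ± 0.14 (adjusted p = 0.00261) and 0.98 ± 0.17 (adjusted p = 2.18e-04) on the log2 scale. The 10 h call of IKBKE was lost without OMV replicate 3 (0.44) or LPS replicate 3 (0.53).

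ZC3H12A was at 8.14 and 8.48 CPM in LPS at 24 h, and OMVs were 2.23-fold higher (1.15 ± 0.23, adjusted p = 0.00302). NFKBIA at 26.0 and 27.2 CPM (0.71 ± 0.15, adjusted p = 0.00888) and RELB at 10.3 and 8.86 CPM (1.04 ± 0.23, adjusted p = 0.0177) were likewise below both OMV libraries. BIRC3 at 2.71 and 4.05 CPM completed the 6 (1.44 ± 0.31, adjusted p = 0.0118). TNFAIP3 passed with each library left out in turn. Each of the other 5 was lost without OMV replicate 2 and without LPS replicate 2, where IKBKE gave 0.88 and 0.92 and BIRC3 0.98 and 1.02. RELB was lost whichever library was left out. NFKBIA was also lost without LPS replicate 3, and ZC3H12A without OMV replicate 3. Without the replicate block TNFAIP3 and IKBKE passed at 24 h and TNFAIP3 at 10 h, whereas IKBKE at 10 h had an adjusted p of 0.174. At 24 h all 10 genes were higher in OMVs than in LPS (49.8% of all genes), with a median of 0.85, and 8 did not overlap where 10.6% of all genes stood above LPS in this way. At 10 h 7 were higher, with a median of 0.23 against -0.00065 over all genes, and RELB was next to the threshold at 0.56 ± 0.17 (adjusted p = 0.0577).

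LPS itself passed for no member. Of the 20 values of LPS in the medium against PBS at 10 and 24 h, 16 were above 0, 1 had an unadjusted p under 0.05, and 0% of all genes passed at either time with edgeR. The median of the 10 genes was 0.16 at 10 h and 0.04 at 24 h, against 0.0012 and -0.0042 over all genes. An unadjusted p under 0.05 was seen in 751 and 450 of the 19233 genes. The 20 values ran from -0.21 for ZC3H12A at 24 h to 0.44 ± 0.18 for IKBKE at 10 h, the value with the low p. The 95% intervals of these 20 values reached up to 0.92, so that smaller rises could not be told from none. Of the 20 values of transfected LPS against the 2 ng siRNA, 8 were above 0, none had p under 0.05, and they ran from -0.33 for NFKBIA at 24 h to 0.19 for BIRC3 at 10 h, with 0% of all genes passing. DESeq2 called no member in these comparisons either.

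Whether the OMV effect changed between 10 and 24 h was tested as the difference of the 2 differences from PBS. No member passed, where 0.0312% of all genes did. An unadjusted p under 0.05 was seen in 1214 of the 19233 genes, 4 of them members. The largest was NFKBIA, whose OMV effect was 0.86 ± 0.22 greater at 24 h on the log2 scale (adjusted p = 0.212), followed by BCL3 at 0.78 ± 0.21 (adjusted p = 0.328). RELB differed by 0.68 ± 0.31, TNFAIP3 by 0.38 ± 0.16 and IKBKE by 0.16 ± 0.25. NFKBIA passed in 2 other fits, with the replicate block within each time (0.85 ± 0.20, adjusted p = 0.0238) and with every gene that had a count tested (0.84 ± 0.19, adjusted p = 0.0384), and in none of the other 8 fits tried with other libraries, settings or tools (adjusted p 0.148 to 1). The later passing of RELB and BIRC3 is not shown to be a difference between the times, and that of NFKBIA depends on the fit.

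OMVs were also set beside the other vesicles, which share the medium route but not the dose. At 10 h TNFAIP3 was at 54.3, 42.4 and 48.2 CPM in L. casei MVs and 54.2 and 40.3 CPM in E. faecalis MVs, and at 24 h at 37.7 and 35.6 and at 35.8 and 35.4 CPM. All of these were below every OMV library. The tests of OMVs against L. casei MVs gave TNFAIP3 0.62 ± 0.09 at 10 h (adjusted p = 5.33e-07; 0.442% of genes called) and 1.10 ± 0.11 at 24 h (adjusted p = 9.64e-11; 0.0676%). Against E. faecalis MVs they gave 0.64 ± 0.10 at 10 h (adjusted p = 2.33e-05; 0.879%) and 1.10 ± 0.13 at 24 h (adjusted p = 3.98e-09; 0.052%).

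IKBKE passed the same tests at 10 h, by 0.67 ± 0.13 over L. casei MVs (adjusted p = 7.3e-04) and 0.71 ± 0.15 over E. faecalis MVs (adjusted p = 0.0028), and not at 24 h, where the differences were 0.68 ± 0.17 (adjusted p = 0.106) and 0.76 ± 0.19 (adjusted p = 0.132). Its 24 h levels were 20.6 and 16.9 CPM in L. casei MVs and 24.3 and 15.4 CPM in E. faecalis MVs. Of these the 24.3 CPM came from a shallow library, E. faecalis MVs replicate 2. Over the 66 libraries, the 5 OMV libraries held the 5 highest values of both genes: TNFAIP3 ran from 69.997 to 87.5 CPM against at most 58.8 CPM in the other 61, and IKBKE from 26.0 to 36.1 CPM against at most 24.3 CPM. Such a separation was seen in 5 of the 19233 genes (0.026%), the others being C3, PERP and PI3.

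RNA taken from the OMVs did not pass for any listed gene. TNFAIP3 stood at 52.5 and 58.8 CPM after 2 ng of OMV-RNA at 10 h and at 46.5 and 39.4 CPM after 2 ng of siRNA, without overlap but also without passing (0.27 ± 0.13, adjusted p near 1), and the 58.8 CPM came from the shallowest library. At 24 h it was at 33.8, 32.3 and 37.0 CPM against 34.2 and 33.7 CPM. The OMV effect over PBS exceeded the OMV-RNA effect over siRNA by 1.25 ± 0.16 for TNFAIP3 at 24 h (adjusted p = 7.6e-07), and by 1.12 ± 0.26 (adjusted p = 0.0363) and 1.32 ± 0.25 (adjusted p = 0.0019) for IKBKE at 10 and 24 h. These differences of effects passed for 0.161% of all genes at 10 h and 0.0364% at 24 h. They were not refitted with a library left out, and the 10 h value includes the shallowest library. OMVs were given in the medium and OMV-RNA by transfection, each against its own control.

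Over the 3 kinds of vesicle RNA, 7 comparisons with siRNA gave 70 values for the 10 genes. Of these 38 were above 0, 2 had an unadjusted p under 0.05 and none passed, with 0% of all genes passing in each comparison by edgeR, and no member by DESeq2. The values ran from -0.38 for RELB in L. casei RNA at 24 h to 0.31 for BIRC3 in E. faecalis RNA at 10 h, and the 95% intervals reached from -1.07 to 0.87. OMV-RNA against transfected LPS passed for no member and for 0% of genes at both times.

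**Figure D3:**
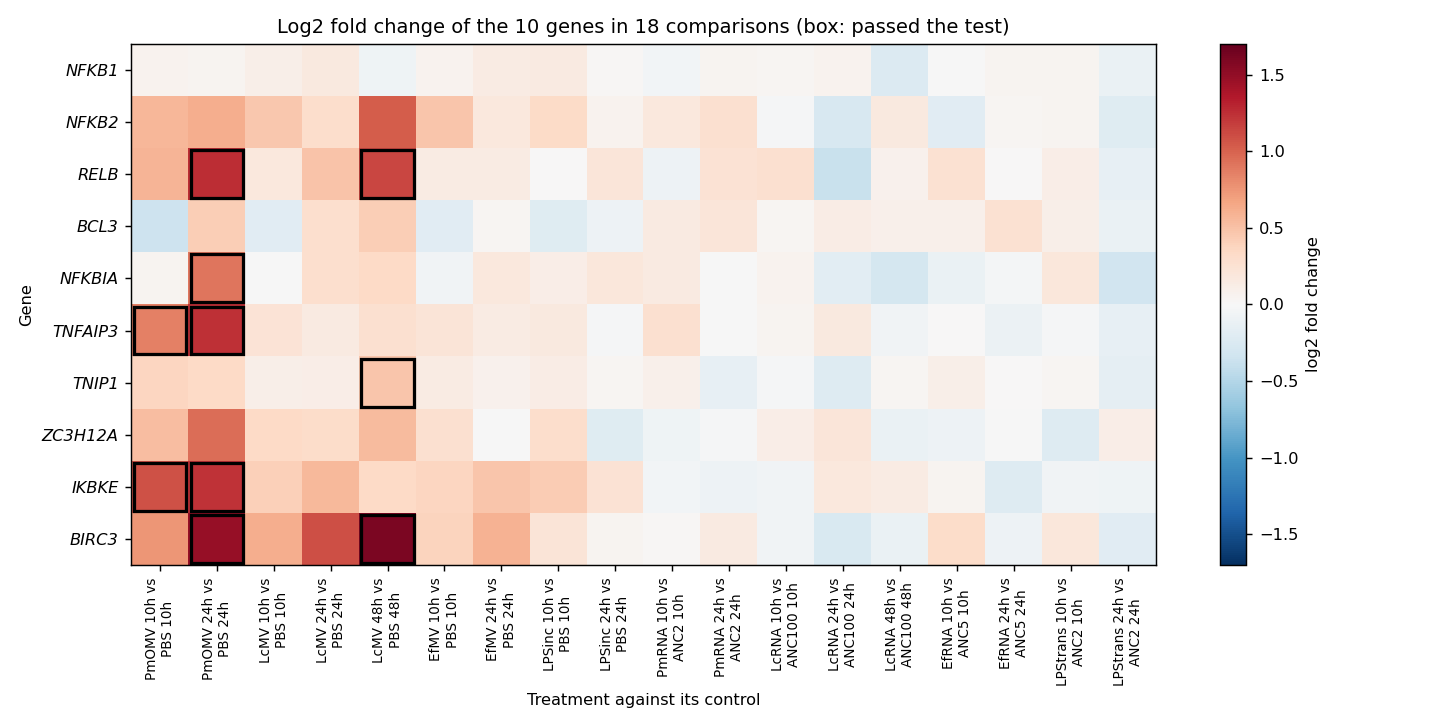
Log2 fold change (colour) of the 10 genes (vertical) in 18 comparisons of a treatment with its control (horizontal); boxes mark values that passed the test. The boxes stand in P. mirabilis OMVs at 10 h (2) and 24 h (5) and in L. casei MVs at 48 h (3).

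L. casei MVs passed for members at 48 h and not before. At 10 h 8 of 10 genes were above PBS, with a median of 0.21 against -0.0050 over all genes, and 0.0468% of all genes passed. An unadjusted p under 0.05 was seen in 3 of the 10 and in 1433 of the 19233 genes. At 24 h all 10 were above PBS (49.3% of all genes), with a median of 0.29, and 7 of the 10 did so without overlap (10.3% of all genes), while 0.0052% of all genes passed. The 24 h values included BIRC3 at 6.85 and 6.54 CPM against 2.73 and 3.62 CPM in PBS (1.10 ± 0.32, adjusted p near 1).

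At 48 h RELB, TNIP1 and BIRC3 were higher in L. casei MVs than in PBS, where 2.7% of all genes passed in either direction. RELB was at 16.3 and 9.46 CPM in MVs and 6.27 and 7.54 CPM in PBS (2.19-fold, 1.13 ± 0.27, adjusted p = 0.00963). TNIP1 was at 117 and 137 CPM against 84.8 and 102.9 CPM (1.39-fold, 0.48 ± 0.13, adjusted p = 0.0324). BIRC3 was at 4.07 and 5.85 CPM against 0.649 and 3.50 CPM (1.60 ± 0.39, adjusted p = 0.0117). In none of the 3 did the groups overlap, but the 0.649 CPM of BIRC3 stands for 3 counts, and without that library, PBS replicate 2, the log2 difference was 1.07 (adjusted p = 0.292), against 2.97 without PBS replicate 5. RELB was lost without either PBS library or MV replicate 2 (0.77), TNIP1 without either PBS library or MV replicate 3 (0.37), and BIRC3 also without MV replicate 3 (1.24).

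BCL3 stood at 38.4 and 41.5 CPM in MVs and at 25.1 and 26.1 CPM in PBS (0.42 ± 0.15, adjusted p = 0.131), and NFKB2 at 24.7 and 35.3 CPM against 12.55 and 13.4 CPM (1.03 ± 0.35, adjusted p = 0.108). TNFAIP3, which OMVs raised, was at 37.3 and 30.1 CPM against 28.1 and 33.3 CPM, overlapping (0.28 ± 0.13, adjusted p = 0.284). In all 9 of 10 genes were higher (49.3% of all genes), with a median of 0.45, and 8 did not overlap where 21.7% of all genes stood above PBS in this way.

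The 48 h calls rest on PBS replicates 2 and 5 against MV replicates 2 and 3, so that 1 replicate number is shared. All 3 were lost in the fit without the replicate block (adjusted p = 0.261 for RELB, 0.314 for BIRC3 and 0.195 for TNIP1). The siRNA control of the same time, with replicates 2 and 3, gave RELB at 6.04 and 11.9 CPM, BIRC3 at 3.02 and 3.29 CPM and TNIP1 at 96.5 and 128 CPM. The ranges of RELB and TNIP1 overlap those of the MVs. Against it no member passed (0.0156% of all genes did), with log2 differences of 0.59 for RELB, 0.66 for BIRC3 and 0.19 for TNIP1, though it was given by another route.

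**Figure D4:**
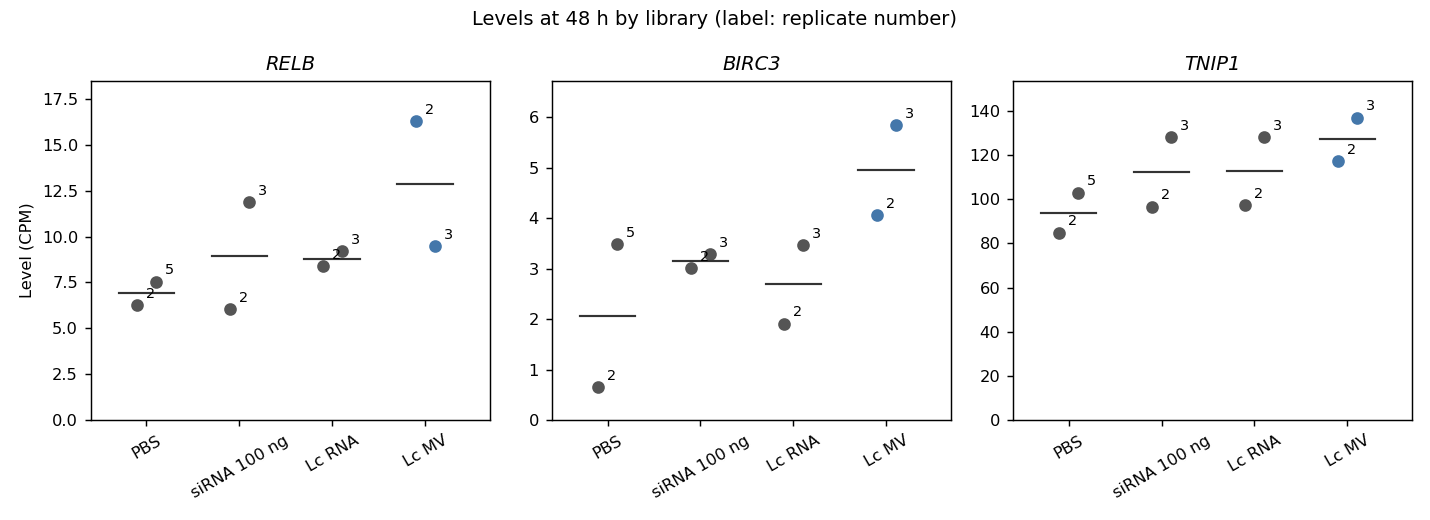
CPM (linear axis from 0) of RELB, BIRC3 and TNIP1 at 48 h in each library given PBS, 100 ng siRNA, L. casei RNA or L. casei MVs, with the replicate number beside each point. For RELB, MV replicate 3 at 9.46 CPM lies below siRNA replicate 3 at 11.9 CPM.

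E. faecalis MVs passed for no gene of the table against PBS at either time by edgeR (0% at 10 h and 0% at 24 h). An unadjusted p under 0.05 was seen in 648 of the 19233 genes at each time. That share is below the 0.05 that would come with no effect. Of the 10 genes 8 were above PBS at 10 h and 9 at 24 h, with medians of 0.18 and 0.14. Over all genes the medians were -2.3e-05 and -0.0077. Of the 20 values 1 had an unadjusted p under 0.05. NFKBIA at 24 h was at 12.9 and 30.7 CPM in the E. faecalis MV libraries, on both sides of PBS at 23.8 and 22.3 CPM, and the low value came from the shallow replicate 2.

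Control cells themselves changed over time. In PBS, RELB fell by 0.98 ± 0.25 on the log2 scale from 10 to 24 h (adjusted p = 0.0071) and BCL3 fell by 0.49 ± 0.15 (adjusted p = 0.0342), where 6.72% of all genes passed. With the 100 ng siRNA, TNFAIP3 fell by 0.47 ± 0.11 (adjusted p = 0.0017), IKBKE by 0.49 ± 0.17 (adjusted p = 0.0359) and BIRC3 by 1.03 ± 0.30 (adjusted p = 0.0128), where 13.6% of genes passed. TNFAIP3 fell with the 5 ng siRNA (12.2% of genes passed) and BCL3 with the 2 ng siRNA (6.25%). From 24 to 48 h BCL3 rose by 0.50 ± 0.15 in the 100 ng siRNA (adjusted p = 0.013; 14.5% of genes) and no member passed in PBS (16.7% of genes). No member differed with a passing test between any siRNA control and PBS at 10 or 24 h (0% of genes), nor at 48 h (0.25%).

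Replicate number also moved with some members. Between replicates 3 and 2, compared over all groups in the same fit, 61.5% of all genes passed, and NFKB2 (0.50 ± 0.08) and BCL3 (0.38 ± 0.04) were higher in replicate 3 while RELB (-0.19), TNFAIP3 (-0.15) and NFKB1 (-0.08) were lower. In the 100 ng siRNA at 48 h, NFKB2 was at 12.48 CPM in replicate 2 and 36.1 CPM in replicate 3, whereas in E. faecalis MVs at 10 h it was at 39.4 and 37.9 CPM.

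Of 93 other genes of the pathway, 74 were tested, and 19, among them TLR4, TNF and CXCL8, did not pass the filter on low counts. Against PBS, OMVs raised 5 of the 74 at 10 h, where 1.09% of all genes passed, and 3 at 24 h, where 0.109% did, and none fell. Their median log2 difference was 0.07 and 0.05. The genes that passed were mostly targets: C3, the complement component, rose 3.21-fold at 10 h (1.68 ± 0.19) and 3.93-fold at 24 h (1.98 ± 0.20), and SOD2, a mitochondrial antioxidant enzyme, rose by 0.79 ± 0.07 at 10 h. SOD2 shares exon bases with the antisense genes ACAT2 and WTAP, with the same limit on strand, and C3 with a gene on the same strand.

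The chemokine genes were scarce. CXCL10 had 71 counts in 3 OMV libraries and 2 in PBS at 10 h, and CXCL5 had 134 counts against none in PBS or LPS. At 24 h CXCL1 had 43 counts against 9 in PBS (2.64 ± 0.53) and CCL20 had 26 against 3. The receptor gene TLR7 also passed at 10 h (2.01 ± 0.50). RELA, which encodes the p65 subunit, and the genes of the IKK complex did not pass: RELA differed from PBS by 0.11 and 0.10 at 10 and 24 h, CHUK by 0.07 and 0.19, IKBKB by 0.05 and -0.12 and IKBKG by 0.64 (adjusted p = 0.116) and -0.12.

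Against LPS the pathway genes that passed numbered 6 of 74 at 10 h, where 3.15% of all genes passed, and 2 at 24 h, where 0.151% did, all higher in OMVs. C3, CXCL10, CXCL5 and SOD2 recurred at 10 h and were joined by the ligand gene LTB (2.54 ± 0.59) and the inhibitor gene NFKBIB (0.38 ± 0.10), and C3 and CXCL1 passed at 24 h. With L. casei MVs at 48 h, 5 of 74 passed where 2.7% of all genes did: C3 (1.30 ± 0.20), IER3 (2.02 ± 0.45), TNFRSF12A (1.41 ± 0.26) and RBCK1 (0.36 ± 0.11) rose and BIRC2, the neighbour of BIRC3 in sequence and position, fell by 0.40 ± 0.12. Against the siRNA control of 48 h, C3 alone of the 74 passed. The exons of CXCL5, NFKBIB, IER3, TNFRSF12A and RBCK1 also overlap those of antisense genes, with the same limit on strand.

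The genes with levels most like those of TNFAIP3 across the 28 group means, each taken relative to its time, were PI3 (Pearson r = 0.91), OR2I1P (0.88), EHF (0.84), SDC4 (0.84) and C3 (0.83) among 17935 genes compared. Among the listed genes IKBKE was nearest (0.86) and NFKB1 farthest (-0.05). Groups share lanes, times and replicate numbers, and the likeness leans on the OMV groups: over the 26 groups without them the values were 0.53 for PI3, 0.47 for IKBKE and 0.01 for SDC4.

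The libraries set aside give another picture. Their 3 libraries labelled as OMVs had TNFAIP3 at 38.6 to 52.7 CPM and IKBKE at 14.9 to 17.8 CPM, below all 5 OMV libraries used. Of the 36 others set aside, 1 exceeded the lowest of these 5 (69.997 CPM) in TNFAIP3 and 2 exceeded it (26.0 CPM) in IKBKE. These were replicate 5 of the 2 ng siRNA at 10 h, with 75.5 CPM of TNFAIP3 and 31.5 CPM of IKBKE, and replicate 4 of transfected LPS at 24 h, with 67.9 and 31.8 CPM. With all libraries in their labelled groups no member passed in any comparison: TNFAIP3 in OMVs against PBS was 0.73 ± 0.20 at 10 h (adjusted p = 0.501) and 0.51 at 24 h (adjusted p = 0.762), and IKBKE 0.90 ± 0.21 (adjusted p = 0.103) and 0.63 (adjusted p = 0.762). Hardly any gene of the table passed there: 3 to 6 in OMVs against PBS at 10 h and 5 to 6 against LPS, with or without the replicate block. In both OMV comparisons at 24 h, and in L. casei MVs against PBS at 48 h, 0 genes passed. The loss of calls is thus not particular to the listed genes.

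**Figure D5:**
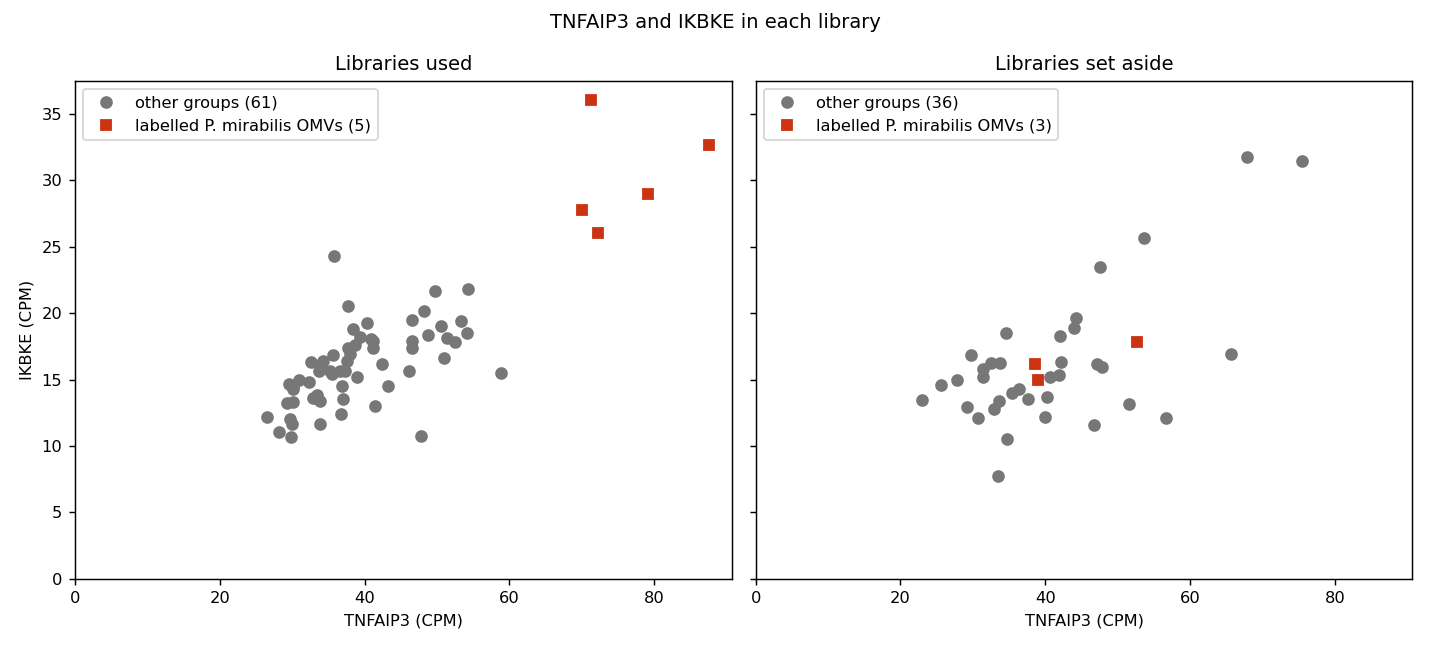
TNFAIP3 (x axis) against IKBKE (y axis) in CPM, 1 point per library, for the 66 libraries used and the 39 set aside, with libraries labelled as P. mirabilis OMVs marked. Among those used the 5 OMV libraries lie apart from the other 61, and among those set aside the 3 OMV libraries lie among the other 36.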

How the data were processed

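Raw counts per gene were deposited by the authors in 1 table; per the labels and the study's methods, reads were aligned to GRCh38 with STAR, deduplicated, and counted with featureCounts from primary alignments above a mapping quality minimum, with no strand option named. The 10 genes and all lists were chosen with earlier results of these data known, and lanes 2, 3 and 4 of 1 flow cell were set aside on the same grounds. Genes passing edgeR's filterByExpr (19233 of 63241) were normalised with TMM and fitted with edgeR 4.0.16 in R 4.3.3 (trended dispersion, robust quasi-likelihood F test, two-sided), with 28 group coefficients and the replicate number as an additive block over 66 libraries. P-values were Benjamini-Hochberg adjusted within each comparison over all genes. Standard errors are the log2 fold change over the root of F. Comparisons sharing PBS or siRNA libraries are not independent. The replicate numbers come from the labels and no shared batch is stated; deviations of same-numbered libraries correlated by 0.19 to 0.68. Named pathway genes are those that passed in P. mirabilis OMVs against PBS or LPS or in L. casei MVs against PBS at 48 h, and RELA, CHUK, IKBKB and IKBKG in any case; genes like TNFAIP3 are the 5 with the highest r and a mean of at least 1 CPM; PERP and the set-aside libraries were named after their values were seen. The code was tested on simulated data. Alternatives were DESeq2 1.42.0, other scaling, filters, blocks and libraries.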

Additional observations from a re-analysis of the deposited data

Results flagged for a closer look

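In groups of 4 used libraries, 20 sets of values of the listed genes were examined for a library far from the others, and 4 had one, where chance gives about 1 in 20. In the 100 ng siRNA at 10 h, BIRC3 was at 10.2 CPM in replicate 5, NFKB2 at 28.2 CPM in replicate 2 and RELB at 11.9 CPM in replicate 3. In L. casei RNA at 10 h, BIRC3 was at 8.22 CPM in replicate 5.

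For 2 genes the effect of OMVs over PBS differed from that of OMV-RNA over siRNA by a test of the difference. It was 1.12 greater on the log2 scale at 10 h and 1.32 at 24 h for IKBKE, and 1.25 greater at 24 h for TNFAIP3. These differences were not refitted with a library left out.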

How the results depend on the processing

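The libraries chosen mattered most: with all libraries in their labelled groups, with or without the replicate block, 0 members passed in each of the 5 comparisons that had calls, and BIRC3 turned to -0.15 with the block and -0.18 without it in OMVs against PBS at 24 h, and to -0.018 in L. casei MVs against PBS at 48 h, as did RELB to -0.014, both without the block. Over all genes, 3 to 6 passed in those fits in OMVs against PBS at 10 h, 5 to 6 against LPS at 10 h, and 0 in the others. Without the replicate block on the 66 libraries, 0 members passed in L. casei MVs at 48 h in place of 3, 3 in OMVs against PBS at 24 h in place of 5, and 1 and 2 in OMVs against LPS at 10 and 24 h in place of 2 and 6. With a block within each time, 5 passed in OMVs against PBS at 10 h, 4 against LPS at 10 h, and 1 in the difference of OMV effects between the times. With every gene that had a count, these were 4 in OMVs against PBS at 10 h and 1 in the difference of effects, both times NFKBIA for the latter. The number of all genes that passed also moved between fits, over the ranges given below. A higher count of members in 1 fit is therefore not by itself a result about them. In L. casei MVs at 48 h, 0 passed with flow cell and lane added and 1 with replicates 2 and 3 only. Leaving out 1 library lowered the number of all genes that passed in each of the 5 comparisons that had calls. A member lost in such a refit is therefore not by itself a result about the list. TNFAIP3 and IKBKE in OMVs against PBS passed in every such refit at both times, with log2 fold changes of 0.84 to 0.92 and 1.15 to 1.34 for TNFAIP3 and 0.87 to 1.29 and 1.13 to 1.34 for IKBKE. DESeq2, other size factors and the robust option moved no count of members by over 1.5 times. Over all genes, the count in OMVs against PBS ran from 17 to 704 at 10 h (209 as reported) and from 6 to 62 at 24 h (21), in OMVs against LPS from 37 to 1496 (606) and from 5 to 61 (29), and in L. casei MVs at 48 h from 54 to 637 (519) on the same 66 libraries or replicates 2 and 3. With 2 libraries in 20 of 28 groups, and 17 to 43 counts behind the 24 h call of BIRC3, small changes were not detectable.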
